A study of Mus musculus with 7 samples.

Results

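The endothelin system of the mouse aorta was followed through 6 genes: the ligands Edn1 and Edn3, the converting enzymes Ece1 and Ece2, and the receptors Ednra and Ednrb. They are 6 of 31253 genes counted in each library, and they were chosen by name, as ligand, enzyme and receptor genes of the family, to ask which cells send and which receive endothelin 1. The levels that set this choice of cell types are given as a description, with no test between the cell classes. Types within the fibroblast and smooth muscle classes were compared with a test. Single-cell libraries were made from the same part of the aorta of Slc38a2flox/flox mice (flox controls, 3 libraries) and Slc38a2deltaEC mice (endothelial knockouts, 4 libraries), and both groups had eaten a high-salt diet for 3 weeks. Slc38a2 encodes SNAT2, which carries small amino acids into cells together with sodium. The Cre line behind the knockout, the strain, age and sex of the mice, and whether a library came from 1 animal or from pooled animals were not given in the sources used here. All p-values therefore rest on the spread over 7 libraries, some of which may be technical.

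Endothelin 1 is made as a precursor that furin-type proteases trim to big endothelin, and the endothelin-converting enzymes, metalloproteases encoded by Ece1 and Ece2, cut big endothelin to the active peptide. In arteries the peptide is released mainly by the endothelium toward the vessel wall, where the receptor encoded by Ednra couples through Gq proteins to calcium release and constriction of smooth muscle. The receptor encoded by Ednrb is known in the endothelium for nitric oxide release and for clearance of the peptide, and it binds endothelin 3 as well as endothelin 1, whereas the Ednra receptor prefers endothelin 1.

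On build GRCm38, with GENCODE vM21 annotation, Edn1 (ENSMUSG00000021367) spans chromosome 13 from 42301476 to 42307990 on the plus strand, with the antisense gene Gm47118 inside its span. Edn3 (ENSMUSG00000027524) spans chromosome 2 from 174760619 to 174784042, also plus. Ece1 (ENSMUSG00000057530) spans chromosome 4 from 137862237 to 137965229, plus strand, and overlaps Gm13012 on the other strand. Ece2 (ENSMUSG00000022842) spans chromosome 16 from 20629828 to 20646485, plus strand, and overlaps Gm49333 on the same strand, so its counts are uncertain. Ednra (ENSMUSG00000031616) spans chromosome 8 from 77663031 to 77724464 on the minus strand, overlapped on the other strand by 4933431K23Rik. Ednrb (ENSMUSG00000022122) spans chromosome 14 from 103814625 to 103844402, also minus. The strand setting of the counting is not given in the sources used here, so reads of a gene and its antisense partner cannot be told apart.

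The start of Edn1 is shown because AP-1 and GATA2 are known activators of this gene and their own levels by cell type are given with those of Edn1. The window of 300 bases in RefSeq's GRCm38.p6 promoter table, 250 before and 50 after the annotated start, held 1 match to the GATA motif AGATAA, on the minus strand, and 1 match to TGACTAA, which resembles an AP-1 site, on the plus strand. Both lie just after the annotated start, and in the lines here, written along the plus strand, the matches are in capitals.
Edn1 GATA match, chr13:42301474-42301499: gagccgggtcTTATCTctggctgcac
Edn1 AP-1-like match, chr13:42301502-42301525: tgcctgtgggTGACTAAtcacaca
Of 32851 promoter windows of this length, 11.2% held AGATAA and 2.35% held TGACTAA on either strand, and the windows of the other 5 genes held neither. The AP-1 consensus TGANTCA, found in 7.81% of all windows, had 0 matches at Edn1. A match is a description of letters, not a bound site.

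The 7 libraries held 6167 to 13792 barcodes and 22646246 to 73102988 UMIs, that is, unique molecular identifiers that count each captured transcript once, and 67477 of 76359 barcodes were kept. Cells were put into 11 classes by sets of marker genes that contain no endothelin gene, which placed 60277 cells and left 7200 ungated. Of 40 further marker genes held out of the gates, 36 were highest in their own class. The Schwann class, with at most 16 cells in a library, could not be checked this way. Adipocytes and erythroid cells had no held-out genes. The endothelial class had 1043 cells, between 45 and 364 in a library, the smooth muscle class 16718, the fibroblast class 37068, the macrophage class 4204 and the mast cell class 242. The labels call the cells goblet cells, but 7 goblet cell genes had 356 UMIs in all over 76359 barcodes. Of these genes 2 had 0 UMIs, and 0 barcodes carried 3 or more of them. Pairs of libraries shared 68 to 218 barcodes, 1.10% to 1.79% of the smaller library. Slc38a2 in endothelial cells stood at 451, 440 and 346 CPM in flox controls and at 232, 290, 331 and 282 CPM in knockouts, lower in each knockout than in every control. The nearest values, 346 CPM in flox control 3 and 331 CPM in knockout 3, rest on 59 and 368 UMIs. The genotype test in endothelial cells called 0 of 7939 genes, so Slc38a2 was not called either. The share of all genes lower without overlap is not given here for this class. Levels here and in what follows are CPM, the UMIs of a gene scaled to 1000000 UMIs of that cell class in that library, and a library enters a class with at least 20 cells.

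Edn1 was an endothelial transcript above all, and within the endothelium it belonged to the cells of the artery's own lining. Endothelial cells had 669 ± 248 CPM (SD, n = 7 libraries), with 579, 788 and 1167 CPM in flox controls 1, 2 and 3 and 494, 577, 424 and 651 CPM in knockouts 1, 2, 3 and 4. Smooth muscle cells had 21.1 ± 13.0 CPM (SD, n = 7), macrophages 23.4 ± 23.2 CPM (SD, n = 7) and fibroblasts 9.92 ± 6.52 CPM (SD, n = 7). Every endothelial value was above every value of those 3 classes, which overlapped one another. Within the same library, smooth muscle cells were above fibroblasts in 7 of 7 libraries, with a median ratio of 1.87. Mast cells had 2 UMIs of Edn1 in 242 cells and T and NK cells 2 UMIs in 332 cells.

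The share of cells with at least 1 Edn1 UMI was 47.5% in the endothelium, 5.01% in smooth muscle, 3.40% in macrophages and 2.60% in fibroblasts. After each cell was thinned to 1000 UMIs, with shallower cells left out, these shares were 29.6% of 952 endothelial cells, 1.60% of 15932 smooth muscle cells, 1.29% of 3948 macrophages and 0.73% of 33802 fibroblasts. They were 0% of 234 mast cells and 0% of 315 T and NK cells. The median library's median depth was 2862.5 UMIs per cell in the endothelium, 4023 in smooth muscle, 4563 in macrophages, 5610 in fibroblasts, 3827 in mast cells and 2565.5 in T and NK cells. Endothelial cells were 1.55% of kept cells but held 37.3% of all Edn1 UMIs, from 13.6% in flox control 1 to 55.0% in flox control 2. Fibroblasts, with 54.9% of cells, held 25.6% of the Edn1 UMIs and smooth muscle cells, with 24.8% of cells, held 19.5%. The plot of UMI shares sets each gene beside the make-up of the cells.

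**Figure D1:**
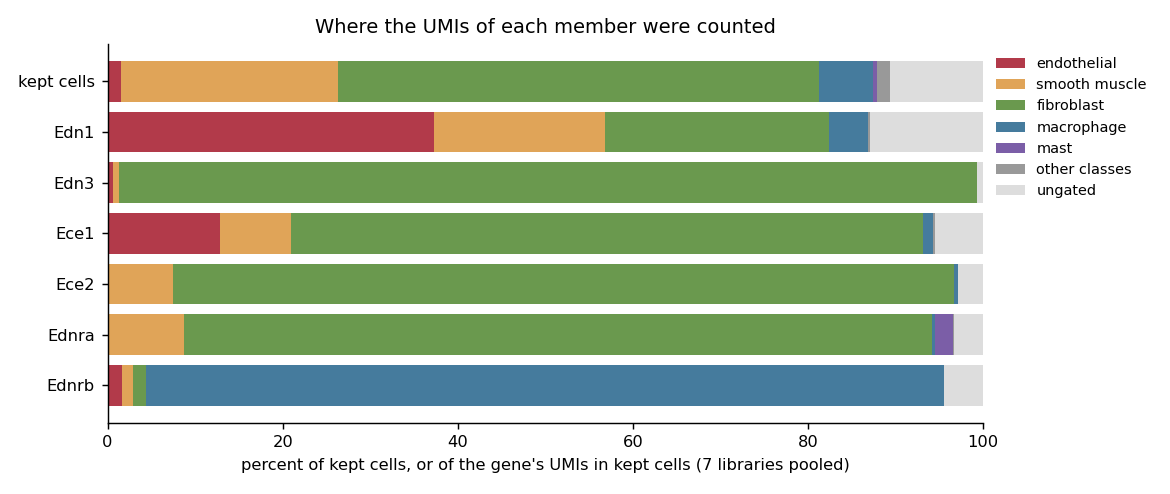
Stacked horizontal bars give the percent of kept cells (top bar) and of each gene's UMIs in kept cells (other bars) by cell class, with 7 libraries pooled. Endothelial cells are 1.55% of cells and hold 37.3% of Edn1 UMIs, fibroblasts hold 98.0% of Edn3 UMIs and macrophages hold 91.1% of Ednrb UMIs.

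Edn1 was also set against the endothelial gate genes read in the same cells, genes that the gates themselves use. Endothelial cells had 3.26 to 11.9 Edn1 UMIs per 100 UMIs of the 10 endothelial gate genes. Fibroblasts had 3.26 to 17.4 per 100, a range that covers the endothelial one. Smooth muscle cells had 11.4 to 82.8 per 100 and macrophages 19.1 to 282 per 100, and in both classes the ratio was above the endothelial ratio of the same library in 7 of 7 libraries. The gates keep cells with many endothelial gate genes out of the other classes, which favours a higher ratio there. The source of this Edn1 was not tested. The macrophage maximum is 48 Edn1 UMIs against 17 UMIs of the gate genes. The macrophage and smooth muscle maxima both belong to flox control 3, where Edn1 was 75.0 CPM in macrophages and 45.6 CPM in smooth muscle. Without flox control 3, macrophages ranged from 8.30 to 20.7 CPM and smooth muscle cells from 8.89 to 31.3 CPM.

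Among macrophages, those that carried Ccr2 and MHC class II genes (Ccr2-type, a monocyte-derived pattern) had more Edn1 than those with Folr2, Lyve1 and Cd163 (Folr2-type, a resident pattern). Edn1 in Ccr2-type cells was 21.5, 22.2 and 116 CPM in flox controls and 8.57, 31.1, 28.1 and 50.5 CPM in knockouts. In Folr2-type cells it was 6.74, 7.62 and 10.5 CPM in flox controls and 6.94, 6.83, 14.7 and 8.69 CPM in knockouts. The Ccr2-type value was the higher in 7 of 7 libraries, with a median ratio of 3.19. These values rest on few counts, since all macrophages of a library held 22 to 69 Edn1 UMIs. Ccr2-type cells numbered 79 to 230 in a library and Folr2-type cells 65 to 610. In knockout 1 the values were close, at 8.57 against 6.94 CPM, and the order was not tested.

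Within the endothelial gate, 890 cells carried the large-artery set led by Cytl1 (Cytl1-type), 94 carried capillary genes such as Cd36 and Gpihbp1 (Cd36-type) and 38 carried lymphatic genes such as Prox1 and Flt4. Cytl1-type cells had 834 ± 302 CPM of Edn1 (SD, n = 7). Cd36-type and lymphatic cells reached 20 cells in at most 1 library, so they are given pooled over libraries, with exact Poisson 95% intervals that cover counting error only. Edn1 was 125 CPM in Cd36-type cells (90.2 to 168) and 20.6 CPM in lymphatic cells (6.68 to 48.0), against 703 CPM in Cytl1-type cells pooled the same way (677 to 730). All 5 lymphatic UMIs came from knockout 2, and 24 of the 43 Cd36-type UMIs came from the same library.

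**Figure D2:**
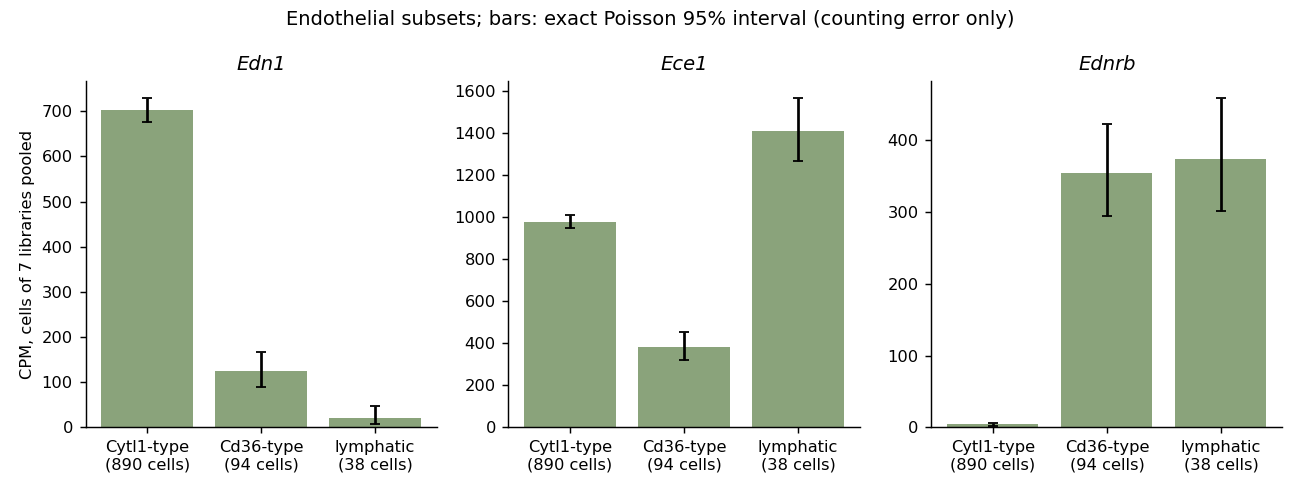
Bars give CPM of Edn1, Ece1 and Ednrb in 3 endothelial subsets with the cells of 7 libraries pooled, and error bars are exact Poisson 95% intervals, which cover counting error only. Edn1 is highest in Cytl1-type cells (703 CPM), Ece1 in lymphatic cells (1411 CPM), and Ednrb stands at 354 and 374 CPM in Cd36-type and lymphatic cells against 4.15 CPM in Cytl1-type cells.

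Of the genes known to drive Edn1 transcription, GATA2 had its own pattern. Gata2 was 236 CPM in endothelial cells and 2125 CPM in mast cells, and 1.81 CPM or less in smooth muscle cells, fibroblasts and macrophages. Mast cells, for which Gata2 is also a held-out marker, thus had the highest Gata2 with Edn1 near 0. Fos, which encodes an AP-1 subunit, was 4544 CPM in endothelial cells, 4323 CPM in fibroblasts and 3098 CPM in smooth muscle cells. Jun was 1294, 1200 and 643 CPM in the same order. These are levels in isolated cells, and whether they match those in the intact aorta was not tested. Klf2, a flow-induced repressor of Edn1, was 909 CPM in endothelial cells, 193 CPM in fibroblasts and 201 CPM in smooth muscle cells.

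Edn3 came from fibroblasts. They had 5.56 ± 0.95 CPM (SD, n = 7), with 5.13, 7.44 and 5.00 CPM in flox controls and 6.06, 5.59, 4.61 and 5.06 CPM in knockouts, and they held 98.0% of its UMIs in kept cells. Smooth muscle cells had 9 UMIs in 16718 cells, and macrophages 0 UMIs in 4204 cells, which allows up to 0.15 CPM. The lymphatic endothelial cells had 8 Edn3 UMIs in 38 cells, 32.9 CPM (exact Poisson 95% interval 14.2 to 64.8), of which 2 were in flox control 1 and 6 in flox control 2, while Cytl1-type cells had 0 UMIs in 890 cells. Edn2, the family's remaining ligand and no member here, had at most 0.72 CPM as the mean of any class and 0 UMIs in endothelial cells.

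Ednra differed between 2 fibroblast types, while calls for the ligand genes depended on the libraries and settings used. Fibroblasts with Fmod, Chad and related cartilage and tendon genes (Fmod-type, 2149 cells) were compared with those with Pi16, Dpp4 and Cd55 (Pi16-type, 17988 cells) in an edgeR fit with the library as a block. Of 12494 genes tested, 24.9% passed at an adjusted p under 0.05, 14.0% higher and 10.9% lower in Pi16-type cells, against 2 of the 6 endothelin genes, both lower. With a share of 24.9% over all genes, 2 of 6 does not set the endothelin genes apart. Ednra was 33.9, 45.2 and 46.3 CPM in Fmod-type and 27.7, 32.6 and 23.3 CPM in Pi16-type cells of the flox controls. In the knockouts it was 45.1, 42.6, 41.9 and 43.9 CPM in Fmod-type and 33.0, 26.4, 32.9 and 22.0 CPM in Pi16-type cells. Fmod-type cells were the higher in 7 of 7 libraries, with a log2 fold change of -0.50 for Pi16-type against Fmod-type cells (SE 0.10, adjusted p = 0.00057 in edgeR's quasi-likelihood test).

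Edn3 in the same fit had a log2 fold change of -0.90 (SE 0.31, edgeR adjusted p = 0.035), higher in Fmod-type cells in 6 of 7 libraries. Its Fmod-type values were 6.25, 9.30 and 25.7 CPM in flox controls and 8.62, 9.69, 1.31 and 32.9 CPM in knockouts, from 83 UMIs in all. This call rests on single libraries: the adjusted p was 0.101 without flox control 3, 0.0643 without knockout 2 and 0.135 without knockout 4, where the log2 fold change was -0.55, and 0.0668 in DESeq2, within a range of 0.00202 to 0.135 over all alternatives. Edn1, at 14.5 ± 9.20 CPM in Pi16-type and 11.4 ± 17.1 CPM in Fmod-type cells (SD, n = 7), had a log2 fold change of 0.91 (SE 0.44, edgeR adjusted p = 0.143). It passed without flox control 3 (1.40, adjusted p = 0.0261), without knockout 2 (1.81, adjusted p = 0.00702) and with no filter on low counts (0.97, adjusted p = 7.9e-05), and under no other alternative, with adjusted p up to 0.493. Median depth was 3216 UMIs in Fmod-type and 6260.5 UMIs in Pi16-type cells, and the part of depth in these differences was not tested.

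Ece1 was read in every main class and was highest in the endothelium, at 916 ± 172 CPM (SD, n = 7). Its endothelial values were 634, 1102 and 780 CPM in flox controls and 1056, 948, 1055 and 837 CPM in knockouts. Fibroblasts had 104 ± 33.0 CPM (SD, n = 7), smooth muscle cells 33.8 ± 5.35 CPM (SD, n = 7) and macrophages 18.4 ± 4.23 CPM (SD, n = 7). The endothelial value was above the fibroblast value in 7 of 7 libraries, with a median ratio of 10.1, and the ranges of these 4 classes met nowhere except between smooth muscle cells (25.6 to 42.7 CPM) and macrophages (14.0 to 25.8 CPM). By number of cells, fibroblasts nonetheless held 72.1% of the Ece1 UMIs and endothelial cells 12.9%. Lymphatic endothelial cells had 1411 CPM (exact Poisson 95% interval 1265 to 1568), Cytl1-type cells 977 CPM (947 to 1009) and Cd36-type cells 383 CPM (320 to 454), all pooled over libraries. Ece1 thus stood high in lymphatic cells whose Edn1 was low.

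Ece2 was close to the limit of detection. Fibroblasts had 1.61 ± 0.45 CPM (SD, n = 7) from 370 UMIs, 89.2% of those in kept cells, and smooth muscle cells 0.37 ± 0.26 CPM (SD, n = 7) from 31 UMIs. Endothelial cells had 0 UMIs in 1043 cells, which allows up to 0.66 CPM.

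Other proteases linked to the processing or breakdown of endothelin were taken from a list of 13 genes. Pcsk6, a furin-type protease, was 289 CPM in fibroblasts and 28.4 CPM in endothelial cells, and Furin itself 33.9 and 45.8 CPM. Mme, which encodes neprilysin, a peptidase that degrades endothelin, was 47.8 CPM in fibroblasts, 6.46 CPM in endothelial cells and 5.07 CPM in smooth muscle cells. Cma1 and Mcpt4, listed as mast cell proteases of the chymase family, stood at 14851 and 31850 CPM in mast cells, where they are also gate genes. They were at 12.5 CPM or less in the other 6 classes with at least 3 libraries. Whether their products cut big endothelin was not tested.

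Ednra was read in mast cells, fibroblasts and smooth muscle cells, in that order of level. Mast cells had 191 ± 84.5 CPM (SD, n = 5 libraries with at least 20 mast cells), fibroblasts 30.1 ± 4.40 CPM (SD, n = 7) and smooth muscle cells 8.97 ± 1.21 CPM (SD, n = 7). The fibroblast value was above the smooth muscle value in 7 of 7 libraries, with a median ratio of 3.18. Among cells with at most 10% of UMIs from mitochondrial genes it was so in 5 of 7 libraries, with a median ratio of 1.60 (0.901 to 1.90). The exceptions, knockouts 2 and 4, rested on 17 and 2 Ednra UMIs in smooth muscle cells. The mast cell value was above the fibroblast value in 5 of 5 libraries, with a median ratio of 7.50. Endothelial cells had 0, 1.26, 3.60, 4.84 or 5.56 CPM, with 0 in 3 of 7 libraries, macrophages 1.03 ± 0.89 CPM (SD, n = 7), and T and NK cells 0 UMIs in 332 cells. By count of UMIs, fibroblasts held 85.5% of Ednra, smooth muscle cells 8.64% and mast cells 2.12%.

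**Figure D3:**
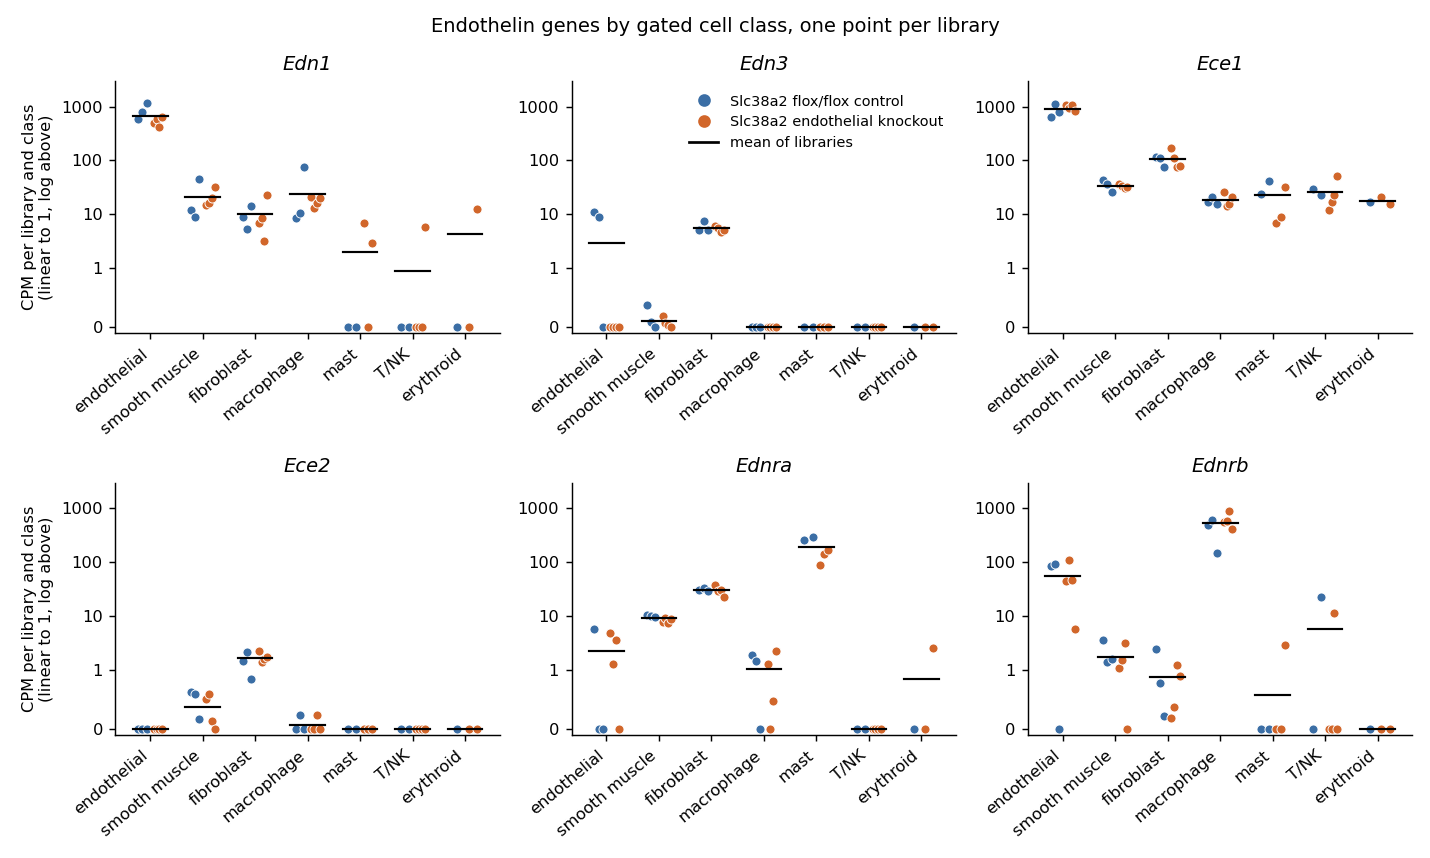
Each panel shows 1 endothelin gene, with CPM per library on a scale that is linear to 1 and logarithmic above, for 7 cell classes with at least 20 cells in at least 3 libraries. Points are libraries, blue for flox controls and orange for knockouts, and lines are means; Edn1 and Ece1 are highest in endothelial cells, Ednra in mast cells (191 CPM) and Ednrb in macrophages (532 CPM).

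The mast cell level rests on 167 UMIs in 242 cells. Ednra UMIs numbered 22 in 23 cells and 36 in 36 cells in flox controls 1 and 2, and 13 in 32, 16 in 24 and 58 in 104 cells in knockouts 2, 3 and 4. These give 257 and 297 CPM against 90.0, 144 and 168 CPM, each knockout below each control. Flox control 3 and knockout 1, left out for having 10 and 13 mast cells, had 204 and 244 CPM, with which the groups overlap, and no genotype test was run in this class. Of mast cells 43.0% had a UMI of Ednra, and 15.0% of 234 cells after thinning to 1000 UMIs, against 2.98% of fibroblasts, 0.85% of smooth muscle cells and 0% of T and NK cells thinned the same way. Fibroblast gate genes stood at 2733 and 1502 CPM in mast cells of flox controls 1 and 2 and at 402, 324 and 904 CPM in those of knockouts 2, 3 and 4. Mast cells had 9.40 to 44.4 Ednra UMIs per 100 UMIs of the 10 fibroblast gate genes, against 0.0544 to 0.0788 in fibroblasts. The gates use those genes too, which favours a higher ratio outside fibroblasts.

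Smooth muscle cells, the textbook target of endothelin 1, had Ednra of 10.6, 10.1 and 9.30 CPM in flox controls and 7.61, 9.18, 7.26 and 8.82 CPM in knockouts. They also carried fibroblast gate genes at 3605 to 5740 CPM, against 41032 to 47985 CPM in fibroblasts. Per 100 UMIs of those genes they had 0.160 to 0.245 Ednra UMIs, above the fibroblast ratio in 7 of 7 libraries. The gates use these genes to keep cells apart, and the part of fibroblast RNA in the smooth muscle level was not tested.

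**Figure D4:**
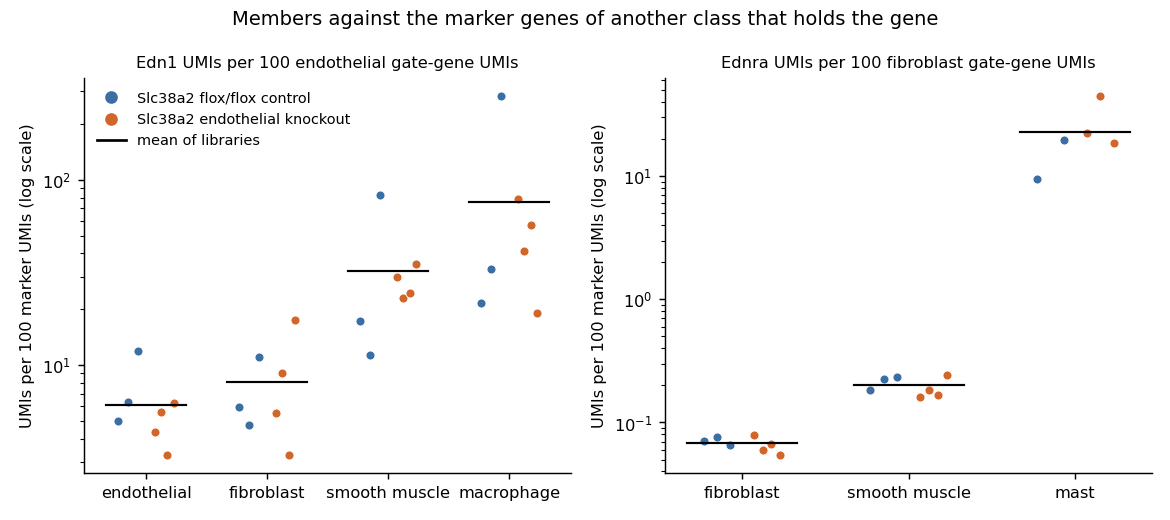
Points are libraries (blue for flox controls, orange for knockouts), lines are means, and both vertical axes are logarithmic. The gates themselves use these marker genes, which favours higher ratios outside the class they mark. Left, Edn1 UMIs per 100 UMIs of endothelial gate genes, where fibroblasts (3.26 to 17.4) cover the endothelial range (3.26 to 11.9), and smooth muscle cells (11.4 to 82.8) and macrophages (19.1 to 282) are above the endothelial value of the same library in 7 of 7 libraries; right, Ednra UMIs per 100 UMIs of fibroblast gate genes, where mast cells reach 9.40 to 44.4.

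The smooth muscle level of Ednra depended on which cells were kept. Cells with at most 10% of UMIs from mitochondrial genes were 5.42% to 32.5% of the smooth muscle class in a library and had 22.6 ± 5.48 CPM of Ednra (SD, n = 7). The other cells, with over 10%, had 7.39 ± 0.80 CPM (SD, n = 7). The first were the higher in every library, with values from 16.0 to 29.9 CPM against 6.24 to 8.43 CPM. They rest on 2 to 43 Ednra UMIs in a library, with 2 UMIs in 25 cells in knockout 4. The median library's median depth was 3200 UMIs in the first and 4148.5 UMIs in the second. Fibroblast gate genes stood at 3480 to 6019 CPM in the first and 3614 to 5626 CPM in the second, and smooth muscle gate genes at 20643 to 30391 and 27583 to 36378 CPM. Ednra per 100 fibroblast gate-gene UMIs was 0.305 to 0.709 in the first and 0.131 to 0.214 in the second. The levels of Ednra in fibroblasts and mast cells moved by less than their SD with the same limit.

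Smooth muscle cells with 2 or more of the genes Rgs5, Kcnj8, Abcc9 and similar (Rgs5-positive, 12688 cells) were compared with the other 4030 smooth muscle cells, with the library as a block. Of 11182 genes tested, 7.09% passed in edgeR, 2.5% higher and 4.6% lower in Rgs5-positive cells, and 0 of the 3 endothelin genes tested did. Ednra was 7.82 ± 1.54 CPM (SD, n = 7) in Rgs5-positive and 12.8 ± 4.03 CPM (SD, n = 7) in the other cells, higher in the others in 5 of 7 libraries. The log2 fold change was -0.53 (SE 0.18, edgeR adjusted p = 0.0779), and it passed only without knockout 2 (-0.64, adjusted p = 0.0475) or without knockout 3 (-0.68, adjusted p = 0.0368), in a range of 0.0368 to 0.538 over all alternatives. Fibroblast gate genes were 3812 to 5823 CPM in Rgs5-positive and 3235 to 5260 CPM in the other cells, and the median depth was 4747 against 2528.5 UMIs. Edn1 had a log2 fold change of 0.36 (SE 0.17, edgeR adjusted p = 0.232).

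Ednrb was a macrophage transcript, with a second site in the capillary and lymphatic endothelium. Macrophages had 532 ± 228 CPM (SD, n = 7), with 489, 613 and 150.0 CPM in flox controls and 552, 591, 908 and 418 CPM in knockouts. Smooth muscle cells had 1.73 ± 1.19 CPM (SD, n = 7) and fibroblasts 0.87 ± 0.79 CPM (SD, n = 7), and macrophages, 6.23% of kept cells, held 91.1% of the Ednrb UMIs. A UMI was found in 46.2% of macrophages, and in 28.0% of 3948 macrophages thinned to 1000 UMIs, against 0.16% of smooth muscle cells, 0.09% of fibroblasts and 0.32% of T and NK cells.

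Folr2-type macrophages carried most of it. Their Ednrb was 557, 741 and 286 CPM in flox controls and 952, 715, 1025 and 602 CPM in knockouts. Ccr2-type macrophages had 122, 121 and 50.8 CPM in flox controls and 49.0, 131, 332 and 72.3 CPM in knockouts. The Folr2-type value was the higher in 7 of 7 libraries, with a median ratio of 5.63, opposite to the order of Edn1 between the same cells. Flox control 3 had the lowest Folr2-type level and also the smallest share of Folr2-type cells among its macrophages, 38.9% against 49.2% to 72.6% in the other 6 libraries.

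In the endothelium Ednrb was 354 CPM in Cd36-type cells (exact Poisson 95% interval 294 to 422, 122 UMIs in 94 cells) and 374 CPM in lymphatic cells (301 to 460, 91 UMIs in 38 cells), pooled over libraries. Cytl1-type cells, the ones with Edn1, had 4.15 CPM (2.37 to 6.73, 16 UMIs in 890 cells). Cd36-type cells with Ednrb UMIs were found in 6 of 7 libraries, with 14, 22 and 0 UMIs in flox controls and 8, 52, 24 and 2 in knockouts. The knockout 2 library, the only one with at least 20 cells of both types, had 582 CPM in Cd36-type and 13.1 CPM in Cytl1-type cells, and with 1 library no test is possible. The Ednrb level of the whole endothelial gate, 83.5, 92.1 and 0 CPM in flox controls and 43.6, 107, 45.9 and 5.78 CPM in knockouts, was lowest in flox control 3 and knockout 4, which had 6 and 4 Cd36-type or lymphatic cells against 15 to 35 in the other 5 libraries.

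Some signalling genes that act behind Gq-coupled receptors were highest in smooth muscle cells. The genes named here were chosen after their levels were seen and do not describe their list as a whole. In a list of 30 such genes Plcb4, a Gq-driven phospholipase, was 588 CPM in smooth muscle cells and 347.5 CPM in endothelial cells. Ppp1r14a, which encodes an inhibitor of myosin phosphatase, was 387 CPM in smooth muscle cells and 21.0 CPM or less in the other 6 classes. Rgs4, a brake on Gq signalling, was 150 CPM in smooth muscle cells and 14.4 CPM in endothelial cells. In mast cells, where Ednra was highest, Prkca, a calcium-dependent protein kinase C, was 324 CPM and Plcb2, the blood-cell phospholipase of this family, 53.8 CPM, against 30.1 and 0.08 CPM in smooth muscle cells.

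No endothelin gene passed the test between genotypes. In simulated data these fits called 17% (endothelial cells) to 59% (smooth muscle cells) of 2-fold changes, so a change of that size can be missed. The fits covered 7939 genes in endothelial cells, 12498 in smooth muscle cells, 15474 in fibroblasts and 10395 in macrophages, and 0.0% of genes passed in each of the 4 classes (edgeR's quasi-likelihood test, Benjamini-Hochberg adjusted p under 0.05). At an unadjusted p under 0.05 they gave 502, 603, 705 and 707 genes, and DESeq2 called 0, 9, 6 and 3 genes. Enough UMIs for a test were present for 3, 4, 6 and 3 of the endothelin genes in these classes, and in these 16 tests 0 had an unadjusted p under 0.05, with adjusted p from 0.764 to 0.9996.

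Edn1 in endothelial cells was 845 ± 298 CPM (SD, n = 3) in flox controls and 536 ± 98.9 CPM (SD, n = 4) in knockouts, with overlapping groups. The log2 fold change for knockout against control was -0.59 (SE 0.28, unadjusted p = 0.0546, edgeR adjusted p = 0.795), and it was -0.24 without flox control 3. In Cytl1-type cells alone Edn1 was 879, 998 and 1411 CPM in flox controls and 712, 691, 489 and 659 CPM in knockouts, each knockout below each control. The log2 fold change there was -0.73 (SE 0.23, unadjusted p = 0.0061, edgeR adjusted p = 0.693). Of 7003 genes tested in that subset 0.0% passed, and 4.93% were lower in the knockouts without overlap of the groups. The fit on that subset was chosen after the data were seen. Cytl1-type cells made up 59.6%, 76.2% and 82.2% of the endothelial gate in flox controls and 62.0%, 77.8%, 87.8% and 98.6% in knockouts. The 10 smooth muscle gate genes summed to 769 to 1269 CPM in endothelial cells of flox controls and to 397 to 586 CPM in those of knockouts, with 0 to 4 of the 10 at 0 in a library, and to 480 to 1431 and 411 to 574 CPM in Cytl1-type cells. Their part in the Edn1 difference was not tested. Ece1 in endothelial cells had a log2 fold change of 0.26 (SE 0.22, edgeR adjusted p = 0.850), which was 0.10 without flox control 1 and 0.49 without flox control 2, and Ednrb one of -0.37 (SE 0.75, edgeR adjusted p = 0.963).

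**Figure D5:**
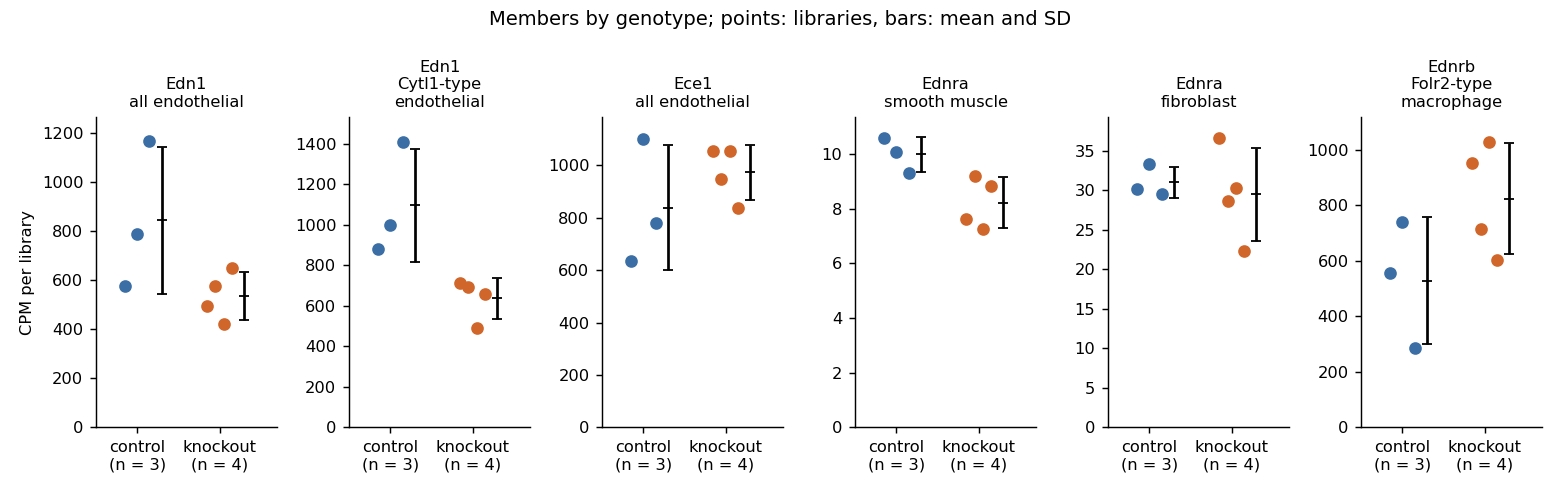
Points are CPM per library in 3 flox controls and 4 knockouts, and bars are the mean and SD; axes start at 0. Edn1 in Cytl1-type endothelial cells (489 to 712 CPM in knockouts, 879 to 1411 CPM in controls) and Ednra in smooth muscle cells (7.26 to 9.18 against 9.30 to 10.6 CPM) do not overlap between groups, and neither passed the test across all genes. Ednra in smooth muscle cells overlaps between groups once cells are split at a mitochondrial share of 10%, and its knockout 4 value rests on 11 UMIs.

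Ednra in smooth muscle cells was lower in each knockout than in each control, and 3.9% of genes in that fit were lower without overlap. The values rest on 53 to 102 Ednra UMIs in a flox control and 11 to 200 in a knockout, lowest in knockout 4 with 293 smooth muscle cells. The log2 fold change was -0.23 (SE 0.16, edgeR adjusted p = 0.941), and -0.02 with the limit of 10% on the mitochondrial share. Cells within that limit had 18.3, 29.2 and 18.8 CPM in flox controls and 21.1, 29.9, 16.0 and 24.7 CPM in knockouts, and the cells above it 7.37, 7.26 and 8.43 CPM against 6.24, 8.15, 6.55 and 7.72 CPM. The groups overlapped in both. Within the limit the knockout 4 value rests on 2 UMIs in 25 cells, and that of flox control 3 on 9 UMIs. Cells within the limit made up 32.5%, 15.8% and 8.52% of the smooth muscle class in flox controls and 10.1%, 5.42%, 10.5% and 8.53% in knockouts. In fibroblasts Ednra had a log2 fold change of -0.04 (SE 0.16, edgeR adjusted p = 0.983). Ednrb in macrophages was 417 ± 240 CPM (SD, n = 3) in flox controls and 617 ± 208 CPM (SD, n = 4) in knockouts, with overlapping groups and a log2 fold change of 0.60 (SE 0.38, edgeR adjusted p = 0.764). It was 0.26 without flox control 3, 0.34 without knockout 3 and 0.96 without flox control 2. The 10 macrophage gate genes in the same cells summed to 17925 to 22624 CPM in flox controls and 24204 to 30101 CPM in knockouts, and their part was not tested. Edn1 had log2 fold changes of -0.18 (SE 0.54, edgeR adjusted p = 0.9996) in smooth muscle cells and -0.55 (SE 0.71, edgeR adjusted p = 0.878) in macrophages. Both turned positive without flox control 3, to 0.99 and 0.94, and neither passed.

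The wider pathway lists did not pass between genotypes either. Of 13 processing genes 7 were tested in endothelial cells, 4 of them higher and 3 lower in knockouts (median log2 fold change 0.21 against -0.01 over all genes), and 0 passed. The 4 with the smallest p were Pcsk5 (0.76), Pcsk6 (-0.95), Pcsk7 (0.39) and Anpep (0.42). Of 30 coupling genes 25 were tested there, 10 higher and 15 lower, with a median of -0.07, and 0 passed, led by Grk5, a receptor kinase, at -0.80 (SE 0.29, unadjusted p = 0.0159, edgeR adjusted p = 0.771), then Plcb3 (0.55), Ppp1r12a (-0.28) and Itpr1 (-0.37). Of 21 regulators of Edn1, all tested, 11 were higher and 10 lower, with a median of 0.01, and 0 passed, led by Yap1, a mechanosensitive coactivator, at -0.43 (SE 0.20, edgeR adjusted p = 0.791), then Klf2 (0.30), Ep300 (-0.20) and Smad3 (-0.33).

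In smooth muscle cells 8 processing genes were tested, 1 of them higher and 7 lower in knockouts (median log2 fold change -0.27 against -0.01 over all genes), and 0 passed. The smallest p belonged to Pcsk7 (0.30), Pcsk5 (-0.25), Lnpep (-0.22) and Mmp2 (-0.28). Of the coupling genes 26 were tested, 14 higher and 12 lower, with a median of 0.02, and 0 passed. Those with the smallest p encode a voltage-gated calcium channel, Cacna1c (-0.38, SE 0.14, edgeR adjusted p = 0.941), and an inositol trisphosphate receptor, Itpr1 (-0.33, SE 0.13, edgeR adjusted p = 0.941), then Grk5 (-0.40) and Prkca (-0.31). Of 20 regulators tested, 13 were higher and 7 lower, with a median of 0.03, and 0 passed, with Nfkb1 (-0.60), Tgfbr1 (-0.18), Hif1a (-0.17) and Foxo1 (-0.11) of smallest p.

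In fibroblasts 28 coupling genes were tested, 7 higher and 21 lower in knockouts (median log2 fold change -0.08 against -0.01 over all genes), 5 with an unadjusted p under 0.05 and 0 that passed. Over all 15474 genes tested in fibroblasts, 705 had an unadjusted p under 0.05 in edgeR, and the list was not tested as a set. The 4 with the smallest p were Itpr1 (-0.53), Trpc6, a receptor-operated calcium channel gene (-1.09), Arrb2, an arrestin gene (0.48), and Plcb1, a phospholipase gene (-0.46), each at an adjusted p of 0.945. Of 10 processing genes tested 7 were higher and 3 lower, with a median of 0.19, 1 with an unadjusted p under 0.05, Pcsk6 (0.72, SE 0.26, edgeR adjusted p = 0.945). Of 21 regulators 10 were higher and 11 lower, with a median of -0.02 and 0 with an unadjusted p under 0.05.

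In macrophages 707 of all 10395 genes tested had an unadjusted p under 0.05 in edgeR, and the lists were not tested as sets. There 24 coupling genes were tested, 11 of them higher and 13 lower in knockouts (median log2 fold change -0.17 against -0.003 over all genes). Of these 1 had an unadjusted p under 0.05, Itpr2 (-0.42, SE 0.17, edgeR adjusted p = 0.705). Of 20 regulators tested there 12 were higher and 8 lower, with a median of 0.05, and 4 had an unadjusted p under 0.05. These were Hif1a (-0.42), which encodes a hypoxia-induced transcription factor, Yap1 (-1.20), Klf4 (0.60) and Smad3 (-0.49), each at an edgeR adjusted p of 0.705. Of 7 processing genes 3 were higher and 4 lower, with a median of -0.05, and 0 genes of the 3 lists passed.

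The genes most like each endothelin gene were found by Pearson's r of log2 mean CPM over the 7 classes with at least 3 libraries, among 11200 genes. With 7 points that share libraries, r is a description only. Edn1 was most like Slc9a3r2 (r = 0.98), Apold1 (0.97) and Cracr2b (0.96). Ece1 was most like Fam189a2 (0.99), Sele (0.99), the endothelial adhesion molecule E-selectin, and Bvht (0.99). Edn3 was most like Slc38a4 (0.99), an amino acid transporter gene, Fmo1 (0.99) and Ackr3 (0.99), and Ece2 most like Gask1a (0.99), Larp6 (0.99) and Matn2 (0.99). Ednra was most like Lonrf2 (0.99), Smarca1 (0.99) and Cobl (0.98), and Ednrb most like Smagp (0.98), Shtn1 (0.97) and Tmem37 (0.97).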

How the data were processed

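Each library was deposited as 1 matrix of unnormalized UMI counts, genes by barcodes. The submitters' processing notes name STARsolo 2.7.10a, CASAVA 1.8, Seurat and build mm10. The annotation, strand setting and barcode rule were not given in the sources used here. Groups follow the genotype label. Of the identifiers, 99.5% matched GENCODE vM21.

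Cells with under 200 genes, over 25% mitochondrial UMIs or a Scrublet doublet call (scanpy 1.11.5, expected rate 0.06, 0.869% to 2.07% of cells) were removed. A cell took the class with the highest share of its gate genes detected, given at least 3 genes and a lead of 0.2. A subset needed 2 of its genes. Counts were summed per class and library with at least 20 cells and tested in edgeR 4.0.16 (TMM, filterByExpr, quasi-likelihood, R 4.3.3), adjusted over all genes, and in DESeq2 1.42.0 as an alternative. The fits were tested on simulated data. Of 2-fold changes the genotype fits called 17% in endothelial cells, 59% in smooth muscle cells, 46% in fibroblasts and 28% in macrophages. Of 4-fold changes they called 76%, 94%, 86% and 88% in the same order. Intervals are exact Poisson at 95%, and a count of 0 allows 3 counts. Named genes are the members, the 3 genes most like each (CPM over 10 in a class, pseudocount 1), and the 4 of smallest p in each pathway list, beside list genes whose levels are described, which were chosen after their values were seen. Members, gates, lists and rules were chosen with earlier results of these data known.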

Additional observations from a re-analysis of the deposited data

Results flagged for a closer look

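In 65 sets of 4 knockout values, over the 6 endothelin genes, the cell classes and their subsets, the ungated cells and all kept cells, 4 held a library that stood apart from the other 3 by Dixon's test at the 95% level. Chance gives about 1 such set in 20, and the sets share cells and libraries. Edn1 over all kept cells was 59.7 CPM in knockout 4, against 11.5, 18.6 and 19.3 CPM in the other knockouts. In ungated cells it was 183 CPM in knockout 4, against 16.0, 41.0 and 42.9 CPM. In Rgs5-positive smooth muscle cells it was 42.6 CPM in knockout 4, from 34 UMIs in 147 cells, against 15.1, 17.0 and 19.7 CPM. Edn3 over all kept cells was 2.20 CPM in knockout 3, against 3.94, 3.89 and 3.65 CPM.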

How the results depend on the processing

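Counts of genes past the threshold between genotypes, 0 in each class, became 57 in endothelial cells, 8 in smooth muscle cells and 8 in macrophages with no filter on low counts, and 9, 6 and 3 in smooth muscle cells, fibroblasts and macrophages in DESeq2. Leaving out 1 library gave 0 in endothelial cells, 0 to 2 in smooth muscle cells, 0 to 5 in fibroblasts and 0 to 1 in macrophages, with the maximum in each of the last 3 without knockout 4. The fit with the replicate number as a block gave 8, 7 and 1 calls in smooth muscle cells, fibroblasts and macrophages. Same-numbered libraries correlated at -0.11 to 0.21 in their deviations, and differently numbered ones at -0.26 to 0.30. With 3 same-numbered pairs in a class, these values cannot decide whether the numbers pair the libraries. The second flox control is named WT2 but also titled replicate 1. It was numbered 2 here, and the correlations and the block rest on that. With that replicate block Ednrb in endothelial cells reversed to 0.38 and Ednra in fibroblasts to 0.085. Between smooth muscle types the 793 calls became 479 in DESeq2, 245 at a gate lead of 0.4 and 427 to 769 with 1 library left out, lowest without knockout 3 (427) and flox control 2 (459). With 1 library left out the log2 fold change ranged from -1.14 to 0.26 for Ednrb in endothelial cells (reversed without flox control 2 at 0.26 or knockout 4 at 0.08), from -0.59 to 0.99 for Edn1 in smooth muscle cells and from -1.14 to 0.94 for Edn1 in macrophages (both reversed without flox control 3), and from -0.12 to 0.085 for Ednra in fibroblasts (reversed without knockout 4). With at most 10% mitochondrial UMIs Edn1 in smooth muscle cells reversed to 0.40, and mean Ednra there moved from 8.97 to 22.6 CPM, and to 10.4 CPM at a gate lead of 0.4. The cause was not tested in any of these. Over all alternatives 268 values kept their direction and side of the threshold, or stayed within 1 SD or 1.5 times, 18 moved, 8 reversed, 4 lost and 5 gained a call. The lead of 0.1 and the Cytl1-type fit were added after the data were seen. Few endothelial, mast and lymphatic cells limit the precision.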

Other observations

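Cells that passed no gate also carried Edn1. The 7200 ungated cells, 10.7% of those kept, held 12.9% of the Edn1 UMIs, from 3.95% to 32.3% in a library. Their level was 33.5, 44.8 and 55.4 CPM in flox controls and 16.0, 41.0, 42.9 and 183 CPM in knockouts, highest in knockout 4. Ece1 in the same cells was 75.2, 95.8 and 50.9 CPM in flox controls and 62.2, 109, 85.2 and 260 CPM in knockouts, also highest in knockout 4.

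Over all kept cells of a library, with no gate, Edn1 was 14.7, 16.8 and 36.0 CPM in flox controls and 11.5, 18.6, 19.3 and 59.7 CPM in knockouts. The share of endothelial cells differs between these libraries, from 47 of 11606 kept cells in flox control 1 to 364 of 7206 in knockout 4. Ednrb over all kept cells was 30.5, 48.3 and 5.28 CPM in flox controls and 24.0, 38.3, 61.3 and 41.7 CPM in knockouts, lowest in flox control 3, which had 167 gated macrophages. Fewer cells of a class and less RNA per cell cannot be told apart in such sums.

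In fibroblasts with Il6, Lif and Cxcl1 (Il6-type, 7448 cells) the endothelin genes were 3.83 ± 2.20 CPM for Edn1, 30.0 ± 4.80 CPM for Ednra and 99.4 ± 39.8 CPM for Ece1 (SD, n = 7).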
